A study of Mus musculus with 6 samples.

Results

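Complement is a cascade of plasma proteins that tag microbes and dying cells. C1q is the recognition molecule of its classical pathway, a bouquet of A, B and C chains that are encoded by C1qa, C1qb and C1qc and made mainly by macrophages and dendritic cells. C3 is the component on which all pathways converge, C4b is cleaved in the classical and lectin pathways, Cfb (factor B) forms the convertase of the alternative pathway, and Cfp (properdin) stabilizes that convertase. C3ar1 and C5ar1 are the receptors of the fragments C3a and C5a, which attract and activate myeloid cells. Spi1, also called PU.1, is a transcription factor of myeloid cells. The data asked how RNA of these complement genes differed between CD8T cells cocultured with macrophages that had or had not been treated with DB2313, an inhibitor of Spi1.

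The 9 complement genes C1qa, C1qb, C1qc, C3, C4b, Cfb, Cfp, C3ar1 and C5ar1 were taken by gene symbol from the 54532 genes of the deposited count table, and all 9 passed the filter on low counts. RNA-seq was performed on 3 samples per group. In both groups, mouse CD8T cells had been taken from the spleen, stimulated on anti-CD3/CD28 beads and kept in coculture with thioglycolate-elicited peritoneal macrophages that had been activated with IFN-γ. The macrophages of the DB2313 group had been treated with this compound, and those of the control group had not. GEO's labels divide the samples in the same way, but call the cocultured cells DC cells where the methods name macrophages. The age and strain of the donor mice of these cells are not given in the sources used here, and neither is whether the 3 samples came from separate cultures, so p-values measure only the spread between these samples, which may be technical.

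The libraries held between 16611975 and 18596217 counts. All 20 T cell markers of a list that included Cd3e and Cd8a passed the count filter, but macrophage markers took a larger share of the counts. The 25 macrophage markers, none of them a complement gene, took between 1.67% and 1.70% of the counts of a control library and between 0.853% and 0.872% of a DB2313 library. The T cell markers took between 0.335% and 0.337%, and between 0.5404% and 0.542%. A list of 5 mature dendritic cell markers took between 0.408% and 0.414%, and between 0.297% and 0.301%, so that in control libraries it exceeded the T cell markers. Another list of 9 dendritic cell markers took between 0.0385% and 0.0402%, and between 0.0286% and 0.0289%. A marker was said to fall or rise at an adjusted p below 0.05 in the edgeR test described below. By this rule 24.8% of all genes tested were lower and 21.2% were higher. Of the 23 macrophage markers tested, 20 fell and 3 rose (Ms4a7, Trem2 and Marco), while Cd5l and Timd4 had too few counts to be tested. All 20 T cell markers rose. Of the other lists, 5 of 8 tested dendritic cell markers fell and 2 rose, 5 of 5 mature dendritic cell markers fell, and 9 of 10 neutrophil markers fell and 1 rose. Of 7 B cell markers 4 rose and 1 fell, and of 5 tested stromal markers 2 rose and 0 fell. In such mixed RNA, fewer cells of a type and less RNA per cell cannot be told apart. The cells from which the complement reads came were not tested.

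At an adjusted p below 0.05 (edgeR, quasi-likelihood test, Benjamini-Hochberg adjusted over all 14883 genes tested), 8 of the 9 complement genes were lower in the DB2313 group and 0 were higher. Over all genes tested, 24.8% were lower and 21.2% were higher by the same rule. C1qa, C3 and Cfp also passed a log2 fold change of -1, which 5.27% of all genes did. The median log2 fold change of the 9 genes was -0.81, against 0.020 over all genes. In the marker lists it was -0.84 for macrophages, -1.62 for neutrophils, -0.62 for mature dendritic cells and -0.48 for the other dendritic cell list. It was -0.056 for stromal, 0.47 for B cell and 0.61 for T cell markers. In the 8 lower genes the groups had no overlap, every control value being above every DB2313 value, as in 27.5% of all genes. The 9 genes together took between 0.228% and 0.238% of the counts in the control group and between 0.116% and 0.1205% in the DB2313 group.

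**Figure D1:**
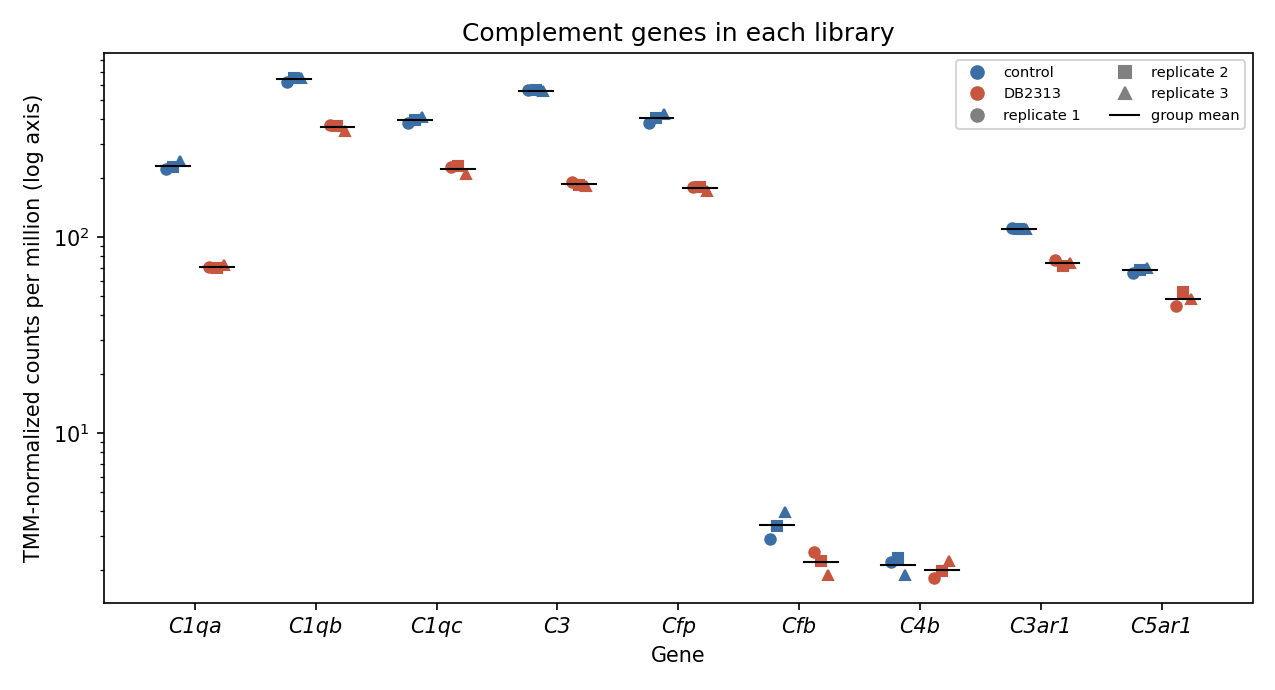
TMM-normalized CPM (log axis) of the 9 complement genes in each library, with circles, squares and triangles for replicates 1, 2 and 3, and black lines at the group means. In 8 genes all DB2313 libraries lay below all control libraries, and in C4b, near 2 CPM, the groups overlapped.

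The genes of the C1q chains lie next to each other on the minus strand of chromosome 4, within 18675 bases of GRCm38 (chr4:136880129-136898803) and in the order C1qb, C1qc and C1qa. The gaps between them are 3616 and 2851 bases, and no exonic base of any of the 3 is shared with another annotated gene. As a planned description, the promoter windows of the 9 complement genes were searched for sequences of the kind that Spi1 binds. RefSeq windows of GRCm38.p6 were found for 6 of the 9 genes, namely C1qb, C1qc, C3, C3ar1, C5ar1 and Cfp. The windows below run from 250 bases before to 30 bases after the RefSeq start site, 5′ to 3′ on the minus strand, on which each of these genes lies. Capitals mark GAGGAA or AGGAAGT on either strand, read on the opposite strand as TTCCTC or ACTTCCT. C1qb and C1qc are shown as the C1q genes with a window, and Cfp and C3 as the other 2 of the genes with the larger falls.

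C1qb, chr4:136886171-136886450: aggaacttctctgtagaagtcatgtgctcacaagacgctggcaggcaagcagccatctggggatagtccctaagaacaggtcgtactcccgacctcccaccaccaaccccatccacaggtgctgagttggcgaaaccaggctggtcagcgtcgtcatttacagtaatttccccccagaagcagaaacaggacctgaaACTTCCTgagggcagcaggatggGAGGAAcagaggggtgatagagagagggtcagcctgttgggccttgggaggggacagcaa
C1qc, chr4:136892885-136893164: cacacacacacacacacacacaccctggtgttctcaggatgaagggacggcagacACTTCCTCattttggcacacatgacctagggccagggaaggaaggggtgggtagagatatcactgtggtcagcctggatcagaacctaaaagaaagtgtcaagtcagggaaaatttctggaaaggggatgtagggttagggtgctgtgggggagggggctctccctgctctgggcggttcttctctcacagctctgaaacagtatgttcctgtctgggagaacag
Cfp, chrX:20931526-20931805: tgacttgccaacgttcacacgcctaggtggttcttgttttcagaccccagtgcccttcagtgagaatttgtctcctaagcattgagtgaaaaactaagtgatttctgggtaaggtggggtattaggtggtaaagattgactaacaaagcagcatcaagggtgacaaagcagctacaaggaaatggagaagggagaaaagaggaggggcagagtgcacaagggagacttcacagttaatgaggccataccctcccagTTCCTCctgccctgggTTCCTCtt
C3, chr17:57228107-57228386: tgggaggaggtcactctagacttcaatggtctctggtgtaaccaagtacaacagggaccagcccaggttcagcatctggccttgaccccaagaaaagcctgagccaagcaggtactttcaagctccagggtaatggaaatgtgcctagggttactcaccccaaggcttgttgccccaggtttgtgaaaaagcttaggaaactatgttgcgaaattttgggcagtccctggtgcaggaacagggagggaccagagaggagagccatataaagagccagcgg

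C1qb held the longer motif from -53 to -47 and GAGGAA from -30 to -25, counted from the start site. In C1qc both motifs overlapped, between -195 and -188. Cfp held GAGGAA at 7 to 12 and at 23 to 28 after the start, and C5ar1 held AGGAAGT from -190 and from -72, while the windows of C3 and C3ar1 held neither. In the table's full windows of 300 bases, GAGGAA was present in 28.3% of all 32851 promoters and in 3 of the 6 here, and AGGAAGT in 9.35% and also in 3 of the 6. The interferon-stimulated response element, present in 3.44% of all windows, was found in 0 of the 6. The RefSeq start lies inside the gene's end in the count table by 202 bases for C5ar1, 151 for C1qc and 4 for C3ar1, and 13 bases outside it for C1qb, so these windows depend on the annotation. A match of letters is a description and not a site of binding.

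C1qa (ENSMUSG00000036887) fell most among the 9 genes. It was counted 4021, 3919 and 4022 times in control libraries and 1306, 1187 and 1328 times in the DB2313 libraries. The level went from 231.9 ± 11.97 to 70.7 ± 1.31 CPM (counts scaled for library size by TMM, SD, n = 3 each), a log2 fold change of -1.71 (standard error, SE, 0.042, adjusted p = 5.19e-29, edgeR). Only 1.81% of all genes tested had a lower log2 fold change.

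C1qb (ENSMUSG00000036905) was the most abundant of the chains in every library. Its counts were 11207, 11113 and 10640 in the control group and 6874, 6337 and 6437 in the DB2313 group, or 638 ± 15.7 and 364.0 ± 12.7 CPM (SD, n = 3 each). The log2 fold change was -0.81 (SE 0.033, adjusted p = 5.24e-22, edgeR). C1qc (ENSMUSG00000036896) was counted 6873, 6840 and 6696 times and 4231, 3924 and 3891 times. It went from 395.4 ± 14.1 to 223 ± 10.4 CPM (SD, n = 3 each), a log2 fold change of -0.82 (SE 0.036, adjusted p = 7.54e-21, edgeR). In both genes each group stayed within a narrow range that was far from the other group.

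Per length (RPKM, CPM divided by gene length in kilobases), the order of the chains was C1qb, C1qa and C1qc in the control group, at 586.7 ± 14.4, 222.9 ± 11.5 and 204.8 ± 7.32 RPKM (SD, n = 3 each). The highest C1qc library, at 211.5 RPKM, lay just under the lowest C1qa library, at 214.0 RPKM. In the DB2313 group the order was C1qb, C1qc and C1qa, at 334.5 ± 11.6, 115.6 ± 5.39 and 68.0 ± 1.26 RPKM (SD, n = 3 each), and no libraries of neighbouring genes in this order overlapped. By RPKM C1qa and C1qc had thus changed places, an order that depends on the annotated lengths of 1040 and 1931 bases. In raw counts C1qa was the lowest of the chains in every library of both groups.

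Because the chains are assembled into 1 protein, their ratios were followed within each library, where scaling has no effect. The ratio of C1qa to C1qb counts was 0.363 ± 0.0132 in control and 0.1945 ± 0.0103 in DB2313 libraries (SD, n = 3 each), a log2 difference of -0.90. The ratio of C1qa to C1qc counts was 0.586 ± 0.0139 and 0.3175 ± 0.0209 (SD, n = 3 each), a log2 difference of -0.89. For both ratios all control values were above all DB2313 values (two-sided exact permutation test over the libraries, p = 0.1, the smallest that 3 against 3 allow, and 0.15 after Benjamini-Hochberg adjustment over the 3 ratios). The ratio of C1qb to C1qc counts was 1.61 ± 0.0225 and 1.63 ± 0.0205 (SD, n = 3 each). Here the groups overlapped, and the log2 difference of 0.015 was smaller than the spread within either group (p = 0.6, the same exact test). C1qa made up 18.3% ± 0.468 of all C1q counts in control and 10.8% ± 0.552 in DB2313 libraries (SD, n = 3 each).

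**Figure D2:**
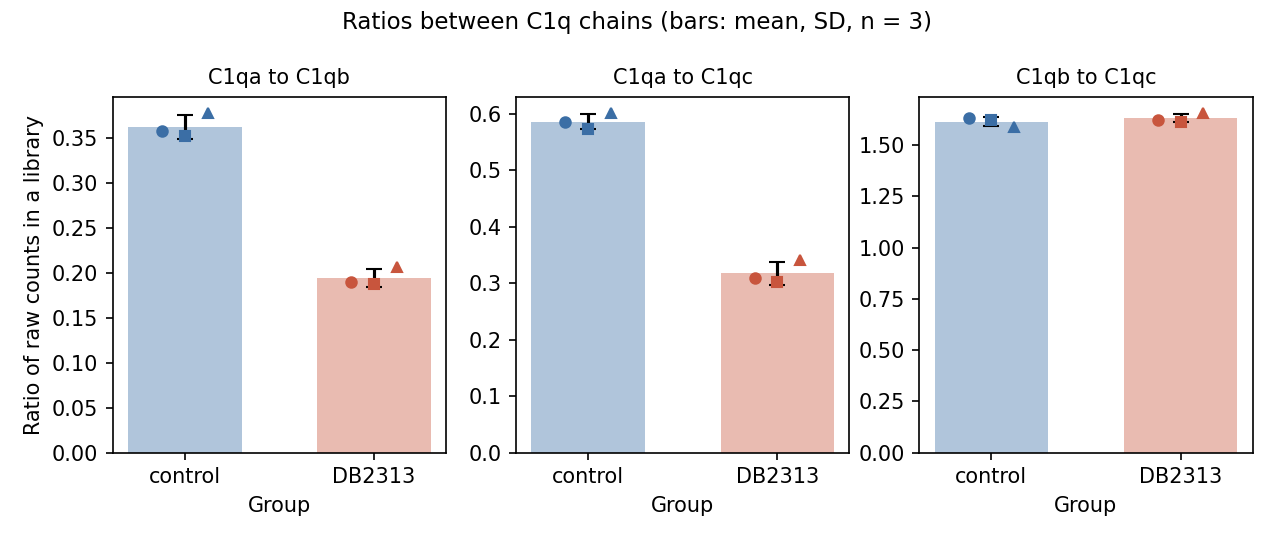
Ratios of raw counts between the C1q chains in each library, for control and DB2313 libraries, with bars for the mean, error bars for the SD (n = 3) and circles, squares and triangles for replicates 1, 2 and 3. The ratios of C1qa to C1qb and to C1qc were lower in all DB2313 libraries, and the ratio of C1qb to C1qc stayed near 1.6 in both groups.

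Other protein-coding genes that averaged at least 10 CPM were ranked by how closely their centred log2 CPM followed each chain over the 6 libraries, by root mean square distance. Among 9331 genes, the closest to C1qa were Cd74 (the invariant chain of MHC class II), H2-Aa (an MHC class II chain) and Bst1 (an ectoenzyme that cleaves NAD), at distances of 0.046, 0.048 and 0.050. The log2 fold change was -1.74 in Cd74, -1.66 in H2-Aa and -1.76 in Bst1. The closest to C1qb were Sod2 (mitochondrial superoxide dismutase), Sesn2 (a stress-induced sestrin) and Pgd (an enzyme of the pentose phosphate pathway), at distances of 0.016, 0.022 and 0.023, with log2 fold changes of -0.83, -0.79 and -0.85. Sod2 was also the closest to C1qc, at 0.017, followed by Asah1 (acid ceramidase) and Gpx1 (glutathione peroxidase). With only 2 groups these distances mostly follow the size of the difference between them, and they are given as a description.

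C3 (ENSMUSG00000024164) is the central component, cleaved by the convertases of all pathways. It was counted 10147, 9682 and 9115 times in control libraries and 3553, 3168 and 3369 times in the DB2313 libraries. The level in CPM was 561.6, 562.4 and 556.1 against 192.1, 185.4 and 182.9, so that the libraries of a group differed little. Its log2 fold change was -1.58 (SE 0.033, adjusted p = 5.04e-31, edgeR), and 2.31% of all genes had a lower one.

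Cfp (ENSMUSG00000001128), on the X chromosome, encodes properdin, the only known positive regulator of the cascade. Its counts were 6919, 6985 and 6988 in the control group and 3323, 3100 and 3175 in the DB2313 group. It went from 405.0 ± 21.7 to 177.8 ± 4.83 CPM (SD, n = 3 each), a log2 fold change of -1.19 (SE 0.037, adjusted p = 1.89e-25, edgeR). Both groups were again well apart.

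Cfb (ENSMUSG00000090231) and C4b (ENSMUSG00000073418) were counted far less than the other genes. Cfb had 52, 58 and 65 counts in the control libraries and 46, 38 and 35 in the DB2313 libraries, which is 3.40 ± 0.545 and 2.20 ± 0.294 CPM (SD, n = 3 each), with a log2 fold change of -0.62 (SE 0.24, adjusted p = 0.0317, edgeR). This call was lost with DESeq2 (adjusted p = 0.107), with library size scaling (0.0620), with upper quartile scaling (0.0509), with no filter (0.0506), with a replicate block (0.0505), and without control replicate 2 (0.0766), control replicate 3 (0.1503), DB2313 replicate 2 (0.0562) or DB2313 replicate 3 (0.0986). Of the 2825 exonic bases of Cfb in GENCODE, 2246 (79.5%) are also exonic in Gm20547, a gene model on the same strand that is listed at 0 in all libraries. The neighbouring C2, the protease subunit that pairs with C4b, shares 46.9% of its exonic bases with other genes and had between 10 and 27 counts. How reads in these shared exons were assigned is not given in the sources used here, so the levels of Cfb and C2 are uncertain.

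C4b had 40, 40 and 31 counts in the control group and 34, 34 and 41 in the DB2313 group. The groups overlapped, with a log2 fold change of -0.09 (SE 0.27, adjusted p = 0.817, edgeR). C4a is a near-identical copy of C4b, so the division of reads between them is uncertain, and together they had 62, 55 and 54 counts in the control group and 59, 60 and 66 in the DB2313 group. C4b was called lower, at -0.68 (adjusted p = 0.0220, edgeR), when libraries were scaled to the T cell markers. The median of all genes was then -0.57. With scaling to the macrophage markers C4b was called higher, at 0.96 (adjusted p = 0.00133, edgeR), where the median of all genes was 1.075.

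The receptors C3ar1 (ENSMUSG00000040552) and C5ar1 (ENSMUSG00000049130) fell by less than C3 or C1qa. C3ar1, the receptor of C3a, had 2009, 1886 and 1809 counts in the control libraries and 1408, 1219 and 1368 in the DB2313 libraries. Its level went from 110.4 ± 0.817 to 73.9 ± 2.41 CPM (SD, n = 3 each), a log2 fold change of -0.58 (SE 0.045, adjusted p = 1.05e-13, edgeR). C5ar1, the receptor of C5a, had 1184, 1175 and 1136 counts and 821, 894 and 889 counts. It went from 67.7 ± 1.95 to 48.3 ± 3.97 CPM (SD, n = 3 each), a log2 fold change of -0.49 (SE 0.060, adjusted p = 1.10e-08, edgeR). Per length the receptors could not be ordered. C3ar1 was at 25.6 ± 0.190 and 17.2 ± 0.560 RPKM in the control and DB2313 groups, and C5ar1 at 26.3 ± 0.757 and 18.8 ± 1.54 RPKM (SD, n = 3 each), and their libraries overlapped in both groups.

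Spi1 itself (ENSMUSG00000002111) was counted 5026, 4983 and 4756 times in control libraries and 2941, 2715 and 2731 times in the DB2313 libraries. It went from 285.9 ± 6.72 to 155.4 ± 6.19 CPM (SD, n = 3 each), a log2 fold change of -0.88 (SE 0.036, adjusted p = 7.22e-22, edgeR). RNA of Spi1 is not a measure of its inhibition by DB2313.

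Each complement gene was also set beside the summed counts of the 25 macrophage markers in its own library. Relative to these markers, C1qa was lower in the DB2313 group by a log2 difference of -0.66, C3 of -0.53 and Cfp of -0.13. C1qb was higher by 0.25, C1qc by 0.23, C3ar1 by 0.48, C5ar1 by 0.57, Cfb by 0.43 and C4b by 0.97. In all 9 genes the groups had no overlap on this scale (two-sided exact permutation test, p = 0.1 for each, the smallest possible, and 0.1 after adjustment over the 9 genes). The share of all genes without overlap on this scale was not determined, so the separation cannot be read as a trait of these 9 genes. The markers' own share of the counts differed by -0.96 on the log2 scale. In the edgeR fit scaled to them, 13114 of all genes tested were higher and 409 lower (adjusted p below 0.05). Most genes were thus higher on this scale, among them C4b, whose log2 fold change was -0.09 in the TMM fit. Lyz2 alone made up 44.2% of the marker counts in control and 24.9% in DB2313 libraries. Without Lyz2 the difference was -1.08 in C1qa, -0.96 in C3 and -0.56 in Cfp, while C1qb and C1qc turned to -0.18 and -0.20. C3ar1 was then at 0.048 (p = 0.4), C5ar1 at 0.14 (p = 0.3) and Cfb at 0.0029 (p = 1, each by the same exact permutation test), and C4b was at 0.54 (p = 0.1). Beside the macrophage markers, the direction of C1qb and C1qc and the separation of the groups in C3ar1, C5ar1 and Cfb thus depended on Lyz2. C1qa, C3 and Cfp were lower with either choice.

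**Figure D3:**
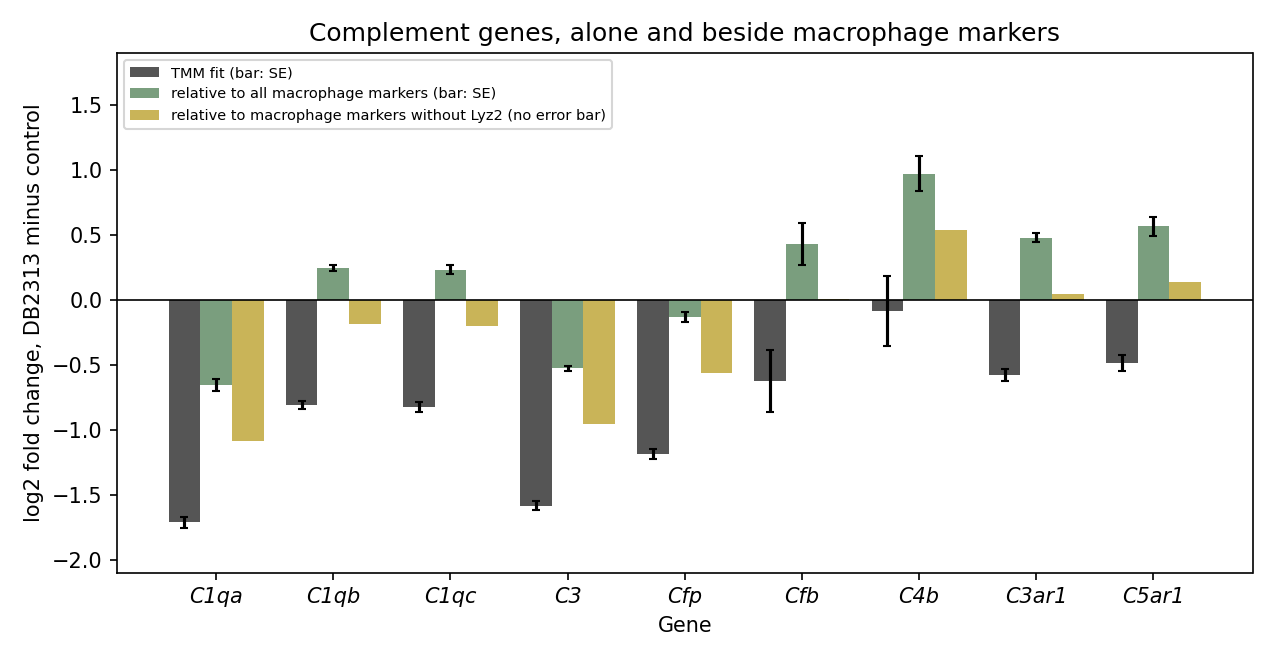
Log2 fold change (DB2313 minus control) of the 9 complement genes from the TMM-normalized fit (grey, error bar for its standard error), and the difference in log2 ratio to the 25 macrophage markers (green, error bar for the standard error of the difference, n = 3 each) and to these markers without Lyz2 (yellow, no error bar). C1qa, C3 and Cfp were below 0 on every scale, and C1qb and C1qc changed sign between the green and yellow bars.

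The rest of the complement system was followed with 54 genes grouped by role, of which 26 passed the count filter. Of these, 12 were lower and 3 higher in the DB2313 group (24.8% and 21.2% of all genes were), with a median log2 fold change of -0.25 against 0.020 over all genes. Of the 12 lower genes, 10 were receptors.

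Of the 4 tested genes of the classical pathway, 1 fell and 3 did not pass, where 24.8% of all genes fell. C1ra, the first protease that C1q activates, was counted 485, 518 and 472 times in control libraries and 153, 150 and 131 times in the DB2313 libraries. Its log2 fold change was -1.83 (SE 0.10, adjusted p = 9.66e-18, edgeR), and the groups were far apart. C1s1, the protease that C1r cleaves, had a log2 fold change of -0.33 (SE 0.25), C2 of 0.46 (SE 0.39) and C4a of 0.28 (SE 0.35), all with overlapping groups.

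Of the 2 tested genes of the lectin pathway, Fcna rose. This gene, for a ficolin that recognizes sugars, was counted 10, 7 and 6 times in control libraries and 42, 24 and 12 times in the DB2313 libraries. Its log2 fold change was 1.68 (SE 0.46, adjusted p = 0.00261, edgeR), but it was 1.19 and no longer passed without DB2313 replicate 1 (adjusted p = 0.0727). Mbl1, Mbl2 and Colec10 were at 0 in all libraries. Of the terminal components, 6 of 7 had too few counts to be tested, and the other, C8g, was counted 73, 58 and 40 times in control and 82, 58 and 39 times in DB2313 libraries, with overlapping groups. The alternative pathway protease Cfd had at most 2 counts in a library.

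Among the 6 tested regulators, which shield host cells, 1 was lower and 2 were higher, where 24.8% of all genes were lower and 21.2% higher. Susd4, an inhibitor of the classical and lectin pathways, was counted 196, 181 and 201 times in control libraries and 36, 63 and 67 times in the DB2313 group, a log2 fold change of -1.86 (SE 0.17, adjusted p = 3.27e-11, edgeR). Cd55, which speeds the decay of convertases, had 359, 345 and 309 counts against 450, 403 and 534, a log2 fold change of 0.39 (SE 0.089, adjusted p = 0.000429, edgeR). Its direction, and that of Cr1l, turned when libraries were scaled to the T cell markers. Cr1l (Crry), the main membrane regulator of C3 in mice, was at 0.11 (SE 0.046, adjusted p = 0.0482, edgeR). This call was lost with DESeq2 (adjusted p = 0.135), with no filter (0.0702) and with at least 10 counts in every sample (0.0533). It was also lost with a replicate block (0.0899) and in 5 of the 6 fits that left out a library, where the adjusted p was up to 0.247.

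Of the 13 tested receptors and binding proteins, 10 fell, 0 rose and 3 did not pass, where 24.8% of all genes fell and 21.2% rose. Those 3 were C1qbp, Cr2 at -0.56 (SE 0.68) and Megf10 at -0.38 (SE 0.46), the last 2 with at most 19 counts in a library. The largest falls were in the chains of the C3 fragment receptors, Itgax (complement receptor 4) and Itgam (complement receptor 3). Itgax had 1907, 1934 and 1703 counts in the control group and 376, 285 and 352 in the DB2313 group, and its log2 fold change was -2.52 (SE 0.065, adjusted p = 2.87e-28, edgeR). Itgam was at -1.83 (SE 0.042), and Itgb2, the partner chain of both, at -0.82 (SE 0.031). Cmklr1, a chemerin receptor related to C3ar1 and C5ar1, had a log2 fold change of -1.73 (SE 0.084), and C5ar2, the second receptor of C5a, of -0.77 (SE 0.20).

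Proteins described as binding C1q differed widely in their log2 fold change. It was -0.92 in Lrp1 (SE 0.048), -0.80 in Scarf1 (SE 0.094), -0.67 in Cd93 (SE 0.040), -0.17 in Calr (SE 0.030) and -0.17 in Lair1 (SE 0.054). All 5 passed in edgeR's test, although Lair1 did not with library size scaling (-0.078, adjusted p = 0.230), upper quartile scaling (-0.11, 0.0943) or without DB2313 replicate 3 (-0.14, 0.0547). C1qbp, a protein that binds the globular heads of C1q, had 1847, 1884 and 1655 counts in the control group and 1899, 1804 and 1890 in the DB2313 group. The groups overlapped, and its log2 fold change was -0.0086 (SE 0.043, adjusted p = 0.890, edgeR), with a sign that changed under other scalings. Scaled to the T cell markers C1qbp was called lower, at -0.60 (adjusted p = 2.57e-15, edgeR), where the median of all genes was -0.57. Scaled to the macrophage markers it was called higher, at 1.05 (adjusted p = 1.36e-21, edgeR), where the median of all genes was 1.075.

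**Figure D4:**
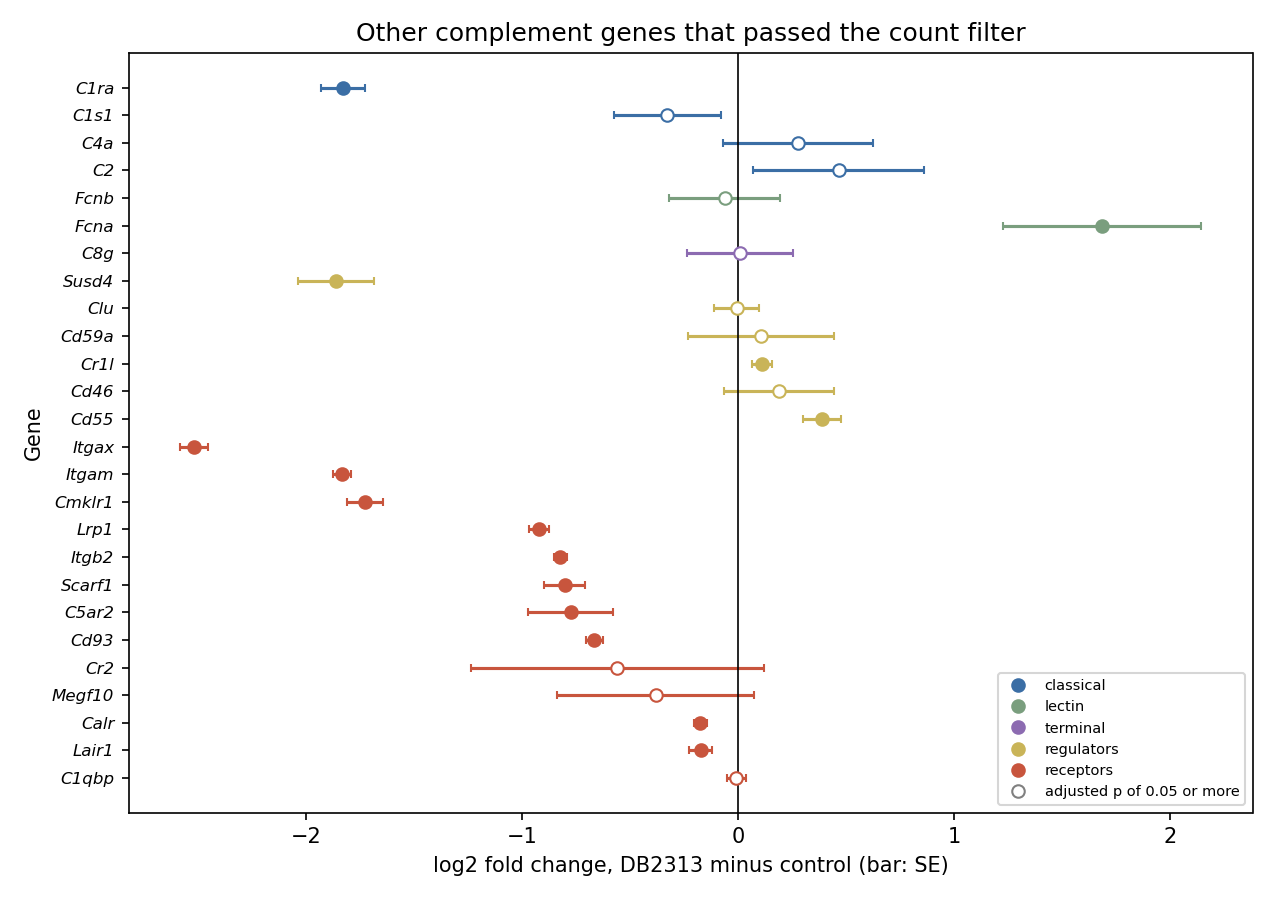
Log2 fold change (DB2313 minus control, error bars for the standard error) of the 26 other complement genes that passed the count filter, coloured by role, with open circles for an adjusted p of 0.05 or more. Receptors and binding proteins lay at or below 0, from Itgax at -2.52 to C1qbp at -0.0086, and Fcna was the highest gene at 1.68.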

How the data were processed

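RNA-seq of 6 samples was analysed, 3 control and 3 DB2313, with totals from 16611975 to 18596217 counts. The authors deposited raw counts per gene. The methods name LifeScope, whereas the submitters' processing notes list CASAVA 1.8, HISAT2 2.0.5 and featureCounts 1.5.0-p3. The build and the use of strand are not given in the sources used here. Of the genes shared with GENCODE, 98.3% had its GRCm38 coordinates, as did all 9 complement genes.

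From these counts, edgeR 4.0.16 under R 4.3.3 tested every gene after filterByExpr and TMM scaling, by a robust glmQLFit and glmQLFTest. P-values were adjusted by Benjamini-Hochberg, and standard errors were obtained from the fold change and its F statistic. The common biological coefficient of variation was 4.67%. A count of 0 allows up to 3 counts (1.81e-05% of the smallest library), for counting error only. The fit was tested on simulated counts.

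The members and lists were chosen with earlier results of these data known. The text names all 9 genes, genes of the complement lists that passed the filter, with values for the largest change in each role group, Spi1, the 3 genes closest in profile to each C1q chain, and the genes of a C1q-related list that were called. The alternatives were DESeq2 1.42.0, other scalings, filters and thresholds, protein-coding genes, a replicate block and leaving out each sample. Macrophage-relative ratios were tested by exact permutation. Protein sequences of the C1q chains were not analysed here. Same-numbered samples were not treated as pairs. Part of the planned motif search is not reported here.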

Additional observations from a re-analysis of the deposited data

How the results depend on the processing

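Of 135 comparisons of the 9 complement genes with an alternative, 118 had the same direction and call, 9 lost the call, 1 gained it and 7 turned in direction. Apart from the scalings to marker lists, C1qa stayed between -1.74 and -1.62, C3 between -1.60 and -1.49 and Cfp between -1.23 and -1.09 on the log2 scale. The number of lower complement genes was 7 or 8 in those fits, 9 with scaling to the T cell markers, and 3 with the added threshold on the fold change. Over the 6 fits that each left out 1 library, it was from 7 to 8. The 9 are no trait of these genes, as the T cell scaling called 11562 of all genes tested lower and 164 higher. The median log2 fold change of all genes was then -0.57. With scaling to the macrophage markers 3 complement genes were lower and 5 higher.

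Cfb did not pass with DESeq2 (-0.62), library size scaling (-0.53), upper quartile scaling (-0.56) or no filter (-0.62), and it ranged from -0.73 to -0.50 when each library was left out. With the replicate block Cfb was at -0.62 (adjusted p = 0.0505), and it changed no other call among the 9. Samples with the same number did not deviate together, with correlations of -0.021, -0.012 and -0.071 over 11776 genes. With 3 samples centred on each group's mean, these values cannot show whether same-numbered samples share an origin, which was not tested. The block gave 3535 lower and 2937 higher genes, and C1qa to C1qb was at -0.90 when same-numbered samples were paired.

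Scaling to the macrophage markers moved the median of all genes by 1.06 on the log2 scale and scaling to the T cell markers by -0.59. With macrophage markers 3 of the 9 genes were lower and 5 higher, and the direction turned in 6, at 0.25 in C1qb, 0.23 in C1qc, 0.96 in C4b, 0.43 in Cfb, 0.48 in C3ar1 and 0.57 in C5ar1. Of the other complement genes 5 were lower and 18 higher, with reversals in C1s1 (0.73), Itgb2 (0.23), Cd93 (0.39), C1qbp (1.05), Calr (0.88), Lrp1 (0.14), Scarf1 (0.25), Lair1 (0.88) and C5ar2 (0.28), and further ones in Spi1 (0.18), Emilin1 (0.83), Emilin2 (0.28), Sod2 (0.23), Sesn2 (0.27), Pgd (0.21), Asah1 (0.19) and Gpx1 (0.26). With T cell markers C4b (-0.68), C1qbp (-0.60) and C1s1 (-0.92) passed, 19 of the other complement genes were lower and 1 higher, and C2 (-0.13), C4a (-0.31), Cd55 (-0.20), Cr1l (-0.48) and C1qtnf6 (-0.35) reversed. Over all genes, 3688 were lower and 3153 higher in the TMM fit, 409 and 13114 with macrophage markers, 11562 and 164 with T cell markers, 2855 and 4985 with library size scaling, and 3105 and 4363 with upper quartile scaling. With the threshold on the fold change 784 were lower and 203 higher, with 5 and 1 among the other complement genes, of which 1 was also the number higher with at least 10 counts in every sample. Leaving out each library gave between 3288 and 3560 lower and between 2611 and 2978 higher genes, and 11 to 14 lower and 2 higher other complement genes.

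C4b was at 0.0060 with library size scaling. C1qbp was at 0.086 with library size scaling, at 0.055 with the upper quartile, and from -0.028 to 0.028 when each library was left out, above 0 only without control replicate 2. Relative to macrophage markers without Lyz2, C1qb was at -0.18 and C1qc at -0.20. The C1qa to C1qb difference ranged from -0.94 to -0.87, and that of C1qb to C1qc from 0.0032 to 0.022, when each library was left out. Depth limits Cfb, C4b, C2, C4a and Fcna, which had at most 65 counts in a library.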

Other observations

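Genes that share the C1q domain but lie outside the complement cascade were followed as a list of 22, of which 7 passed the count filter, 2 fell and 2 rose, where 24.8% of all genes tested were lower and 21.2% higher. Emilin2, an extracellular matrix glycoprotein, was counted 4579, 4395 and 4016 times in control libraries and 2742, 2408 and 2754 times in the DB2313 libraries, a log2 fold change of -0.78 (standard error, SE, 0.036, adjusted p = 2.66e-20, edgeR). Emilin1 was at -0.23 (SE 0.068), but did not pass with library size scaling or without DB2313 replicate 1. Mmrn1 (multimerin), a protein of platelets and endothelium, had 109, 120 and 148 counts against 190, 233 and 222, a log2 fold change of 0.71 (SE 0.14, adjusted p = 8.63e-05, edgeR). It did not pass with scaling to the T cell markers. C1qtnf6 was at 0.24 (SE 0.087, adjusted p = 0.0216, edgeR) and did not pass with DESeq2, or without control replicate 2, DB2313 replicate 1 or DB2313 replicate 2. The cells from which these reads came were not tested.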
